A study of Mus musculus with 12 samples.

Results

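Of the 56941 genes in the count table, 5 encode the constant regions of the gamma and epsilon heavy chains of mouse immunoglobulin. They were taken by symbol as Ighg1, Ighg2b, Ighg2c, Ighg3 and Ighe, and all 5 were found. RNA was sequenced from CH12F3-2A, a mouse B lymphoma line used to study antibody class switching from IgM to IgA. The 4 groups of 3 biological replicates were cells with a guide against Nop16 under CIT, cells with a control guide under CIT, cells with the Nop16 guide and no CIT, and cells with the control guide and no CIT. CIT was 24 h of anti-CD40L at 1 µg/ml, IL-4 at 20 ng/ml and TGF-β at 1 ng/ml. All 4 groups had received Cas9 with a guide on the vector pX459 by electroporation and had been kept in puromycin for 72 h. The labels name 1 guide per gene and give neither its site nor whether the cells were a clone or a pool. They call the Nop16 cells a knockdown, and Nop16, a nucleolar protein of ribosome assembly, was counted at 65.7 ± 0.930 CPM (counts scaled to library size) with the Nop16 guide and 77.1 ± 3.46 CPM with the control guide under CIT (SD, n = 3 each). Without CIT it stood at 85.6 ± 3.10 and 106.3 ± 2.34 CPM in the same order of guides. Its log2 differences were -0.23 ± 0.04 under CIT (adjusted p = 0.00455) and -0.31 ± 0.04 without CIT (adjusted p = 0.000563; edgeR's quasi-likelihood test, model SE), so most of its RNA was still present. A count of reads over the gene does not measure how many copies carry an edit or how much protein remains.

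A B cell first makes IgM from the mu constant gene, which lies next to the rearranged variable region. In class switching, the DNA is broken in the switch regions that precede the constant genes, and the variable region is joined to a downstream constant gene. Before that, each downstream gene is transcribed from its own germline promoter, through a short I exon and the switch region into the constant exons, and this germline transcription opens the gene to recombination. In mouse B cells, IL-4 is known to induce germline transcription of Ighg1 and Ighe, TGF-β that of Igha and Ighg2b, and CD40 signals add to both through NF-κB. Transcripts of Ighg3 and of the gamma 2a or 2c gene are classically tied to lipopolysaccharide and to interferon gamma. The 5 genes encode the heavy chains of IgG1, IgG2b, IgG2c, IgG3 and IgE, and Ighg2c is the C57BL/6 form of the gene that other strains carry as Ighg2a. Counts over constant exons hold germline transcripts and any switched, productive transcripts together.

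In the GENCODE M21 annotation of GRCm38, all 5 genes lie on the minus strand of chromosome 12. This annotation supplied the symbols, whereas the submitters' processing notes name the build GRCm39. In the order in which the minus strand is transcribed, Ighg3 (ENSMUSG00000076615) spans chr12:113356224-113361232, Ighg1 (ENSMUSG00000076614) chr12:113325240-113330523 and Ighg2b (ENSMUSG00000076613) chr12:113302965-113307933. Ighg2c (ENSMUSG00000076612) follows at chr12:113285325-113288932 and Ighe (ENSMUSG00000087642) at chr12:113269260-113273248. Each has 2 annotated transcripts, a secreted and a membrane form, over 6 exon blocks. The exons sum to 2512 bases in Ighg3, 2592 in Ighg1, 2678 in Ighg2b, 1326 in Ighg2c and 1585 in Ighe, and no other annotated gene shares them on either strand. All transcripts of the 5 genes start at the first constant exon, so the I exons of the germline transcripts are not in these models.

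The gamma genes are close copies, and of the exons aligned here the hinge exon differs most in sequence. It encodes the flexible link between the antigen-binding arms and the stem, and it also differs in length, as some other exons do. The hinge exons are shown because they tell the gamma genes apart. They are read 5′ to 3′ on the coding (minus) strand of GRCm38, at chr12:113329844-113329882 for Ighg1, chr12:113307261-113307326 for Ighg2b, chr12:113288263-113288325 for Ighg2c and chr12:113360529-113360576 for Ighg3. Capitals mark the run of 10 or more bases that hinges share, which stands in Ighg2b and Ighg2c.
Ighg1: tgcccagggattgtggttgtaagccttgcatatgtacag
Ighg2b: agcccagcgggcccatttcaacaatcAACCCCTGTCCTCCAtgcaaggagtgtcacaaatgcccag
Ighg2c: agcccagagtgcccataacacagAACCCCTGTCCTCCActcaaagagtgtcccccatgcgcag
Ighg3: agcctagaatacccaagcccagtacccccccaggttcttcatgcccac

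Other exons hold stretches that are identical between members, and the longest are shown because a read that lies within one cannot be given to 1 gene from its sequence. The 88 bases that Ighg2b and Ighg3 share lie in the first membrane exon (chr12:113304919-113305006 in Ighg2b and chr12:113358080-113358167 in Ighg3). The 78 bases that Ighg2b and Ighg2c share lie in the exon of the second constant domain (chr12:113306869-113306946 in Ighg2b and chr12:113287869-113287946 in Ighg2c). Capitals mark runs of at least 20 bases that a further gamma gene also holds.
Ighg2b and Ighg3: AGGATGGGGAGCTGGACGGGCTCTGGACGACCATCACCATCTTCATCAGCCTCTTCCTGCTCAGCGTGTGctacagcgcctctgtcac
Ighg2b and Ighg2c: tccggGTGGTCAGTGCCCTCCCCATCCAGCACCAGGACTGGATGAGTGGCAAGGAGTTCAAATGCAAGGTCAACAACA

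Aligned over whole exons, Ighg2b and Ighg2c were the closest pair in the second constant domain, with 94.2% identical positions. Ighg2b and Ighg3 were 86.7% identical there, and Ighg1 stood at 74.6% to Ighg2b, 75.2% to Ighg2c and 74.2% to Ighg3. In the hinge the identity was 77.3% for Ighg2b with Ighg2c, 55.6% for Ighg2c with Ighg3 and 43.9% for Ighg1 with Ighg2b. Stretches of 50 bases found in the exons of any other annotated gene made up 5.49% of Ighg2c, 4.15% of Ighg2b, 1.58% of Ighg3, 0.393% of Ighg1 and 0% of Ighe. At 100 and 150 bases none of the 5 genes shared a stretch. No source used here gives the read length, so counts of Ighg2b, Ighg2c and Ighg3 carry a small uncertainty from reads that fit more than 1 of them. The line's own sequence at these genes was not analysed here.

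Total estimated counts per library lay between 38866418 and 48615177. Among low values, 9797 were at 1, 7532 at 3, 8845 at 4 and 4025 at 5. The excess at 4 over its neighbours was read as roughly 4 counts for a sequenced fragment, a point on which the labels and file are silent, and the counting intervals below assume it. All 10 B cell markers were above 1 CPM in each group. Of 8 T cell markers, the summed level was 1.43 to 2.54 CPM (Nop16 guide) and 2.35 to 3.40 CPM (control guide) under CIT, and 6.63 to 7.34 CPM and 6.11 to 8.11 CPM without it. Cd247 was above 1 CPM in each group, and Cd3e and Cd3g were at 0 in each group but that of the Nop16 guide under CIT. The 8 macrophage markers summed to 16.1 to 18.3 CPM (Nop16 guide) and 11.9 to 15.1 CPM (control guide) under CIT, and 9.53 to 10.9 CPM and 7.87 to 9.001 CPM without it. Cd68 was above 1 CPM in each group and Csf1r in all but that of the control guide without CIT, and C1qa and Cd14 were at 0 in all 4 groups. The macrophage sum was thus higher with CIT and with the Nop16 guide, and its part in the results below was not tested. Fibroblast markers summed to at most 1.21 CPM and erythroid markers to at most 2.59 CPM. In bulk RNA, fewer cells that transcribe a gene and less RNA per cell cannot be told apart.

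CIT raised all 5 genes with either guide. Among all genes tested, 37% were called under CIT with the Nop16 guide, 18.9% higher and 18.2% lower, and 41.4% with the control guide, 20.4% higher and 20.9% lower. All 5 genes passed the filter on low counts, but Ighg1 and Ighe did so only through the CIT libraries, so their calls here follow in part from that filter. By estimated size, the order of the increase was Ighg1 and Ighe, then Ighg2b, Ighg2c and Ighg3. Ighe is not separated from Ighg2b in this order. Its counting intervals start at 11.8 with the Nop16 guide and 10.5 with the control guide. They include the Ighg2b folds of 21.1 and 18.1.

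Ighg1, the IL-4-induced IgG1 gene, was close to absent without CIT. With the Nop16 guide it had 14.04, 15.5 and 15.7 CPM in the CIT libraries, against estimated counts of 4, 0 and 0 in the libraries without CIT. With the control guide it had 14.8, 10.8 and 13.3 CPM under CIT, against counts of 3, 4 and 3 without. Groups with and without CIT did not come near each other. Taken in fragments of 4 counts, 489 fragments under CIT stood against 1 without with the Nop16 guide, a ratio of 496 after library size (95% exact counting interval 88.7 to 19646). For the control guide, 442 fragments stood against 3, a ratio of 140 (47.7 to 682). These intervals cover counting error only. edgeR's quasi-likelihood test called the increase with each guide (adjusted p = 1.00e-11 with the Nop16 guide and 1.97e-11 with the control guide). Because Ighg1 passed the filter only through its CIT libraries, these calls are not separate support for the increase.

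Ighe, the gene of IgE, was the least abundant member. With the Nop16 guide it had estimated counts of 99, 104 and 64 under CIT, against 0, 3 and 0 without. In cells with the control guide it had 87, 71 and 96 under CIT, against 4, 0 and 0 without. The CIT libraries were all above the others, at 2.07 ± 0.493 CPM with the Nop16 guide and 1.86 ± 0.324 CPM with the control guide (SD, n = 3 each). In fragments, 67 against 1 gave a ratio of 68.0 (95% exact counting interval 11.8 to 2726) with the Nop16 guide, and 64 against 1 gave 60.9 (10.5 to 2442) with the control guide. Adjusted p was 1.36e-05 with the Nop16 guide and 1.97e-05 with the control guide (edgeR's quasi-likelihood test). Ighe also passed the filter only through its CIT libraries, so neither call is separate support for the increase.

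Ighg2b, the TGF-β-induced IgG2b gene, was the most abundant member under CIT. With the Nop16 guide it had 166, 175 and 158 CPM in the CIT libraries, against 8.22, 7.15 and 8.16 CPM without CIT. With the control guide it had 128, 132 and 130.3 CPM under CIT, against 8.05, 7.74 and 5.79 CPM without. The increase was 21.1-fold with the Nop16 guide (log2 4.40 ± 0.09, adjusted p = 1.26e-15) and 18.1-fold with the control guide (log2 4.18 ± 0.09, adjusted p = 2.36e-15; edgeR's quasi-likelihood test).

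Ighg2c and Ighg3, which are not classical targets of these cytokines, were counted in every library and rose less. Ighg2c had 20.8, 21.5 and 20.2 CPM in the CIT libraries with the Nop16 guide, against 3.15, 2.68 and 2.67 CPM without CIT. Cells with the control guide had 13.8, 17.9 and 14.1 CPM under CIT, against 4.09, 2.50 and 1.93 CPM without. Its increase was 7.33-fold with the Nop16 guide (log2 2.87 ± 0.20, adjusted p = 8.17e-09) and 5.40-fold with the control guide (log2 2.43 ± 0.20, adjusted p = 5.15e-08; edgeR's quasi-likelihood test). CIT and unstimulated libraries did not overlap with either guide, as for each of the 5 genes. The CIT libraries lay wholly above the unstimulated ones for 24.3% of all tested genes with the Nop16 guide and 25.5% with the control guide.

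Ighg3 had 24.8, 22.1 and 26.7 CPM in the CIT libraries with the Nop16 guide, against 5.60, 5.45 and 6.83 CPM without CIT. In control guide cells it had 33.3, 43.0 and 37.3 CPM under CIT, against 10.9, 11.5 and 10.1 CPM without. It was the member that rose least, by 4.12-fold with the Nop16 guide (log2 2.04 ± 0.12, adjusted p = 7.37e-10) and 3.48-fold with the control guide (log2 1.80 ± 0.11, adjusted p = 1.92e-09; edgeR's quasi-likelihood test).

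**Figure D1:**
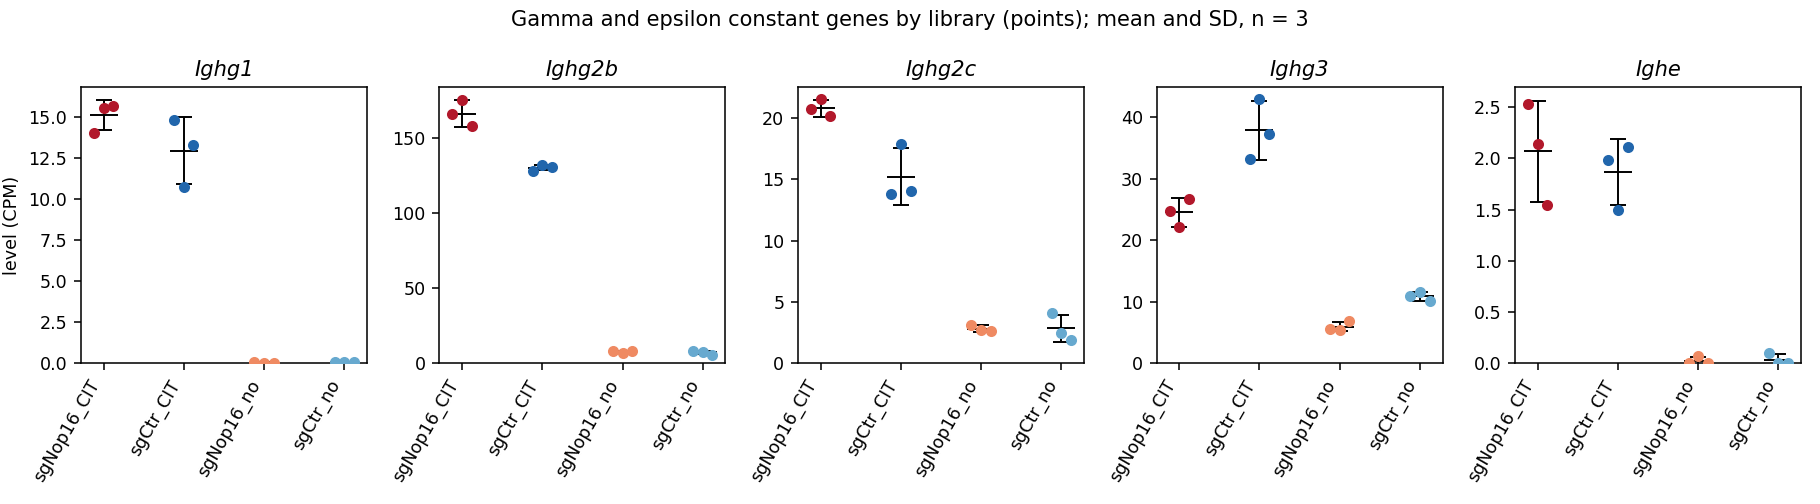
Level of each gamma and epsilon constant gene in the 12 libraries, in CPM, with a panel per gene. Points are libraries and lines are group means with the SD of 3 libraries, and the CIT groups stand far above the unstimulated groups in each panel, while the Ighg3 points of the Nop16 guide lie below those of the control guide with and without CIT.

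Per kilobase of exon, the scale on which genes can be set beside each other, Ighg2b led the 5 genes under CIT. It stood at 62.0 ± 3.27 CPM per kb with the Nop16 guide and 48.5 ± 0.660 CPM per kb with the control guide. Ighg2c, Ighg3, Ighg1 and Ighe followed with the Nop16 guide, at 15.7 ± 0.521, 9.78 ± 0.926, 5.82 ± 0.351 and 1.31 ± 0.311 CPM per kb, and no neighbours among the 5 overlapped. With the control guide, Ighg3 came before Ighg2c, at 15.1 ± 1.94 and 11.5 ± 1.73 CPM per kb, and their libraries overlapped. Ighg1 at 4.996 ± 0.787 and Ighe at 1.18 ± 0.204 CPM per kb came last and did not overlap their neighbours. The place of Ighg2c in this order leans on its gene model, whose last exon is 84 bases long, against 1299 to 1433 bases in the other gamma genes.

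Without CIT the order was led by Ighg2b with the Nop16 guide and by Ighg3 with the control guide. With the Nop16 guide, Ighg2b at 2.93 ± 0.226, Ighg3 at 2.37 ± 0.301 and Ighg2c at 2.14 ± 0.208 CPM per kb overlapped as neighbours. With the control guide, Ighg3 at 4.33 ± 0.276 CPM per kb lay above Ighg2b at 2.69 ± 0.457 without overlap, and Ighg2b overlapped Ighg2c at 2.14 ± 0.844 CPM per kb. Ighg1 and Ighe were near 0 with either guide.

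**Figure D2:**
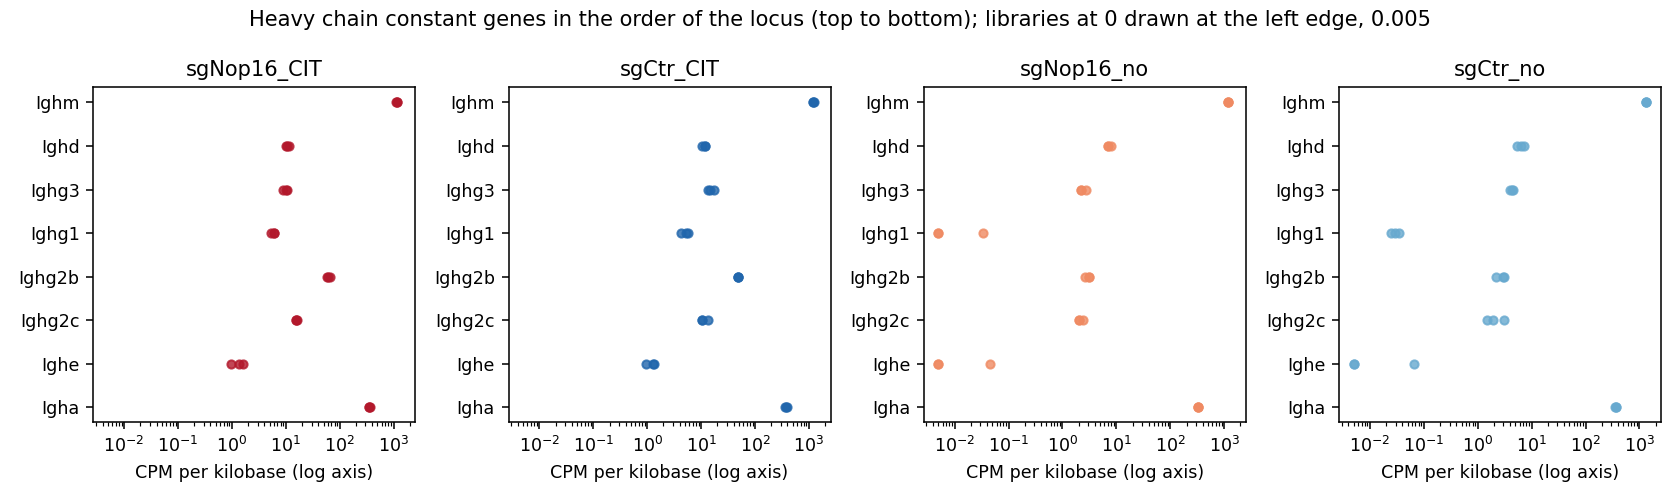
Level per kilobase of exon, in CPM per kb on a log axis, for the 8 heavy chain constant genes in the order of the locus, with a panel for each of the 4 groups. Points are libraries, those at 0 are drawn at 0.005, and Ighm and Igha lie above all 5 gamma and epsilon genes in each group, while Ighg2b leads those 5 in the CIT groups.

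The 5 genes also differed in how they shared their summed counts. Ighg2b took 72.6 ± 1.49% with the Nop16 guide and 65.7 ± 1.28% with the control guide under CIT (SD, n = 3 each). Without CIT it took 47.0 ± 1.04% with the Nop16 guide and 34.1 ± 1.61% with the control guide. Ighg3 went the other way, with 10.8 ± 1.36% and 19.1 ± 1.83% under CIT for the Nop16 and the control guide, and 35.7 ± 2.91% and 52.1 ± 4.80% without CIT. Shares within a library are tied to each other, so a lower share of Ighg3 raises the rest. In CPM, Ighg2b was not called different between guides without CIT (log2 0.13 ± 0.10). Ighg1 held 6.61 ± 0.454% and 6.57 ± 1.24% and Ighe 0.904 ± 0.206% and 0.946 ± 0.186% under CIT, for the Nop16 and the control guide in turn. Ighg2c held 9.11 ± 0.0113% and 7.68 ± 0.912% under CIT and 17.0 ± 1.71% and 13.3 ± 3.75% without CIT in the same order. Together the 5 genes made up 6.87% of all heavy chain constant counts with the Nop16 guide and 5.66% with the control guide under CIT, and 0.537% and 0.597% without CIT.

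**Figure D3:**
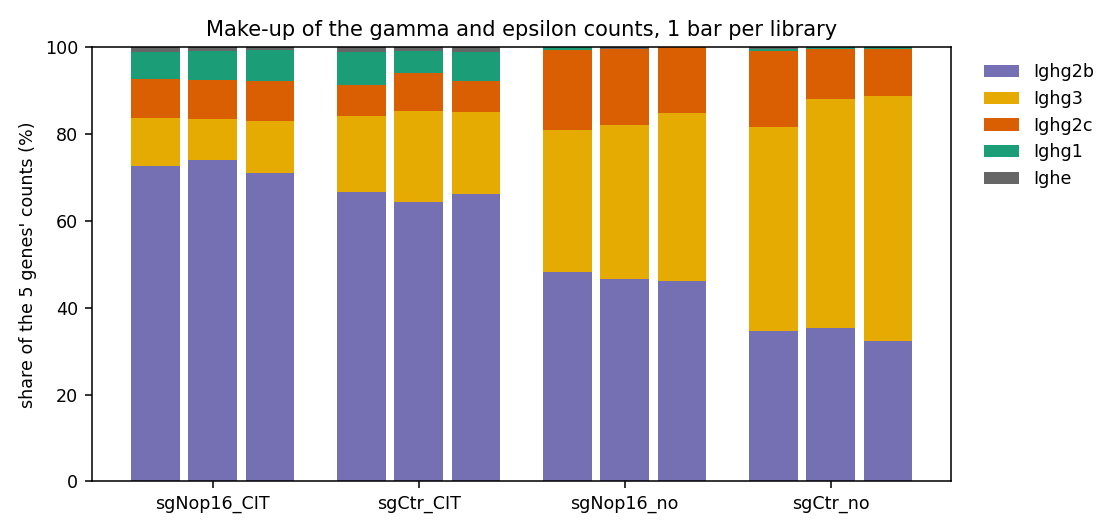
Share of the summed counts of the 5 genes held by each gene, in percent, as 1 stacked bar per library with the 4 groups on the horizontal axis. On average Ighg2b holds 72.6% with the Nop16 guide and 65.7% with the control guide under CIT, and Ighg3 holds 35.7% and 52.1% without CIT.

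The guide against Nop16 is the study's tested change, and the 5 genes did not move together with it. Ighg3 was lower with that guide with and without CIT, Ighg2b was higher under CIT, and the other members were not called. Under CIT, 2 of the 5 genes were called, where 6.16% of all tested genes were called, 3.39% higher and 2.77% lower. Without CIT, 1 of the 5 was called, where 3.32% of all tested genes were called, 1.79% higher and 1.53% lower. Library totals in place of TMM factors moved that split, over all tested genes, to 362 higher and 188 lower, against 301 higher and 257 lower. Under CIT, library totals gave 481 higher and 497 lower, against 569 higher and 465 lower.

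Ighg3 was lower under CIT with the Nop16 guide, at 24.6 ± 2.33 CPM, against 37.9 ± 4.88 CPM with the control guide. The fold was 0.648 (log2 -0.63 ± 0.11, adjusted p = 0.00260; edgeR's quasi-likelihood test). Without CIT it had 5.96 ± 0.756 CPM with the Nop16 guide, against 10.9 ± 0.692 CPM with the control guide, a fold of 0.548 (log2 -0.87 ± 0.12, adjusted p = 0.000582). All 3 libraries with the Nop16 guide lay below all 3 with the control guide under CIT, as for 10.9% of all tested genes, and without CIT, as for 9.4%. Both held for 357 of the 16794 tested genes, or 2.13%.

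Ighg2b was higher under CIT with the Nop16 guide, at 166 ± 8.76 CPM, against 129.97 ± 1.77 CPM with the control guide. The fold was 1.28 (log2 0.35 ± 0.07, adjusted p = 0.00789; edgeR's quasi-likelihood test). Its libraries with the Nop16 guide all lay above those with the control guide, as for 13.2% of all tested genes. Without CIT it had 7.84 ± 0.604 and 7.19 ± 1.22 CPM with the Nop16 and the control guide, the libraries overlapped, and the log2 difference of 0.13 ± 0.10 was not called (95% interval -0.06 to 0.33).

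Ighg2c had 20.8 ± 0.691 CPM with the Nop16 guide and 15.2 ± 2.29 CPM with the control guide under CIT. Its 3 libraries with the Nop16 guide lay above the 3 with the control guide, as did those of 13.2% of all tested genes, but the log2 difference of 0.45 ± 0.18 missed the threshold (95% interval 0.09 to 0.81, adjusted p = 0.189; edgeR's quasi-likelihood test). It passed, with a log2 difference of 0.44 and an adjusted p of 0.0338, when only the 6 CIT libraries entered the fit. Without CIT the levels were 2.83 ± 0.276 CPM with the Nop16 guide and 2.84 ± 1.12 CPM with the control guide, a log2 difference of 0.01 ± 0.21 (95% interval -0.40 to 0.42).

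Ighg1 under CIT had 15.1 ± 0.911 CPM with the Nop16 guide and 12.9 ± 2.04 CPM with the control guide, with overlapping libraries. The log2 difference of 0.22 ± 0.19 was not called (95% interval -0.15 to 0.60, adjusted p = 0.633; edgeR's quasi-likelihood test). Ighe differed by 0.15 ± 0.54 on the log2 scale under CIT (95% interval -0.91 to 1.21, adjusted p = 0.930), an interval too wide to show a change of the size seen for Ighg2b or Ighg3. No fold is given for the 2 genes without CIT, where they had at most 4 estimated counts in any library.

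**Figure D4:**
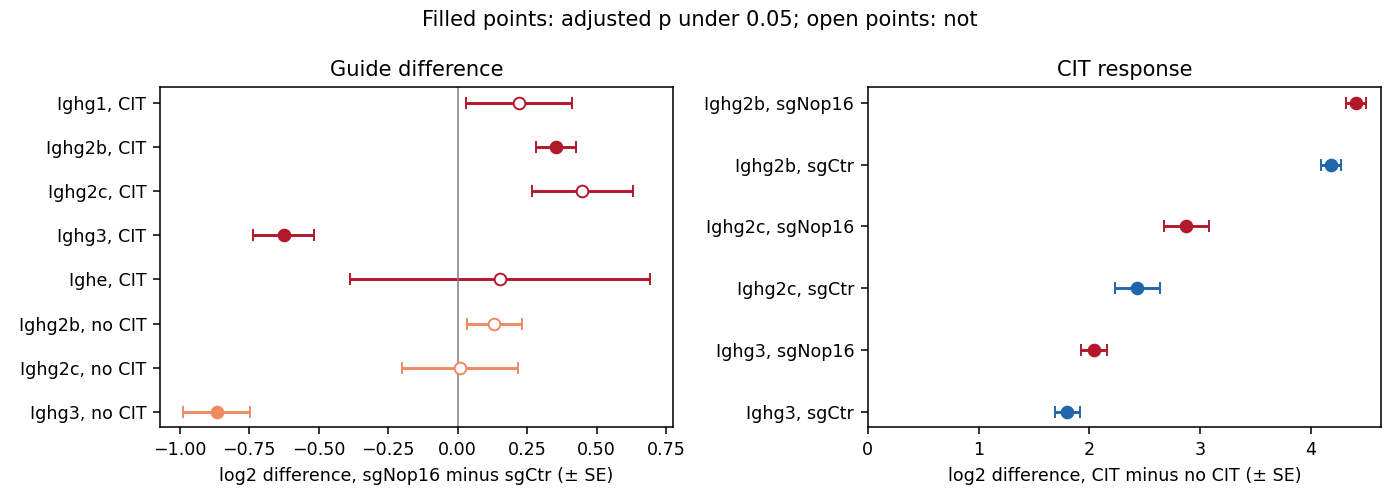
Log2 differences from the edgeR model with their SE, Nop16 guide minus control guide on the left and CIT minus no CIT on the right, with filled points where adjusted p was under 0.05 and without genes at or under the counting floor in a group. Ighg3 lies below 0 on the left, at -0.63 under CIT and -0.87 without, Ighg2b lies at 0.35 under CIT, and Ighg2b shows the larger CIT responses on the right, at 4.40 and 4.18.

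The response to CIT itself was not called as different between the guides for any of the 5 genes, where 2.13% of all tested genes were, 0.881% higher and 1.25% lower. With library totals in place of TMM factors, the split over all tested genes was 105 higher and 273 lower, against 148 higher and 210 lower. The difference between the CIT responses, Nop16 guide minus control guide, was 0.22 ± 0.12 for Ighg2b (95% interval -0.02 to 0.46), 0.44 ± 0.28 for Ighg2c (-0.10 to 0.99) and 0.24 ± 0.16 for Ighg3 (-0.08 to 0.56) on the log2 scale, with adjusted p of 0.483, 0.563 and 0.589 (edgeR's quasi-likelihood test). These intervals leave room for moderate differences. For Ighg1 and Ighe the missing call says little, because both were close to absent without CIT, and no difference is given for them. Averaged over both states, Ighg3 was lower with the Nop16 guide by a log2 difference of -0.75 ± 0.08 (adjusted p = 2.71e-05) and Ighg2b higher by 0.24 ± 0.06 (adjusted p = 0.0237), where 7.31% of all tested genes were called, 3.97% higher and 3.34% lower. The average of Ighg2b lost its call without 1 CIT library of the Nop16 guide (replicate 2, adjusted p = 0.0591) and without either of 2 unstimulated libraries of that guide (replicate 1, 0.0718, and replicate 3, 0.0675), and that of Ighg3 kept it in every such fit.

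Ratios between members within a library do not depend on library scaling. The ratio of Ighg2b to Ighg3 counts was 6.66, 7.92 and 5.89 with the Nop16 guide, against 3.85, 3.06 and 3.49 with the control guide under CIT. Without CIT it was 1.47, 1.31 and 1.20 with the Nop16 guide, against 0.736, 0.671 and 0.571 with the control guide. No library of one guide reached those of the other in either state, and the average difference was 1.99-fold (log2 0.99, exact permutation test within states, two-sided p = 0.005, the smallest that 400 arrangements allow; 0.0075 after adjustment over 3 pairs).

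The ratio of Ighg2c to Ighg3 was also higher with the Nop16 guide. Because it shares Ighg3, itself called lower in both states, with the first ratio, it is not separate evidence. It was 0.836, 0.974 and 0.754 with the Nop16 guide, against 0.414, 0.416 and 0.377 with the control guide under CIT. Without CIT it was 0.563, 0.491 and 0.392 with the Nop16 guide, against 0.374, 0.217 and 0.190 with the control guide. The average difference was 2.01-fold (log2 1.01, exact permutation p = 0.005, adjusted 0.0075). The ratio of Ighg2b to Ighg2c, in contrast, overlapped between guides in both states, at 7.98, 8.13 and 7.82 with the Nop16 guide, against 9.29, 7.36 and 9.27 with the control guide under CIT. Its average difference was -0.02 on the log2 scale (exact permutation p = 0.885). The 3 pairs were picked with earlier results of these data known.

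**Figure D5:**
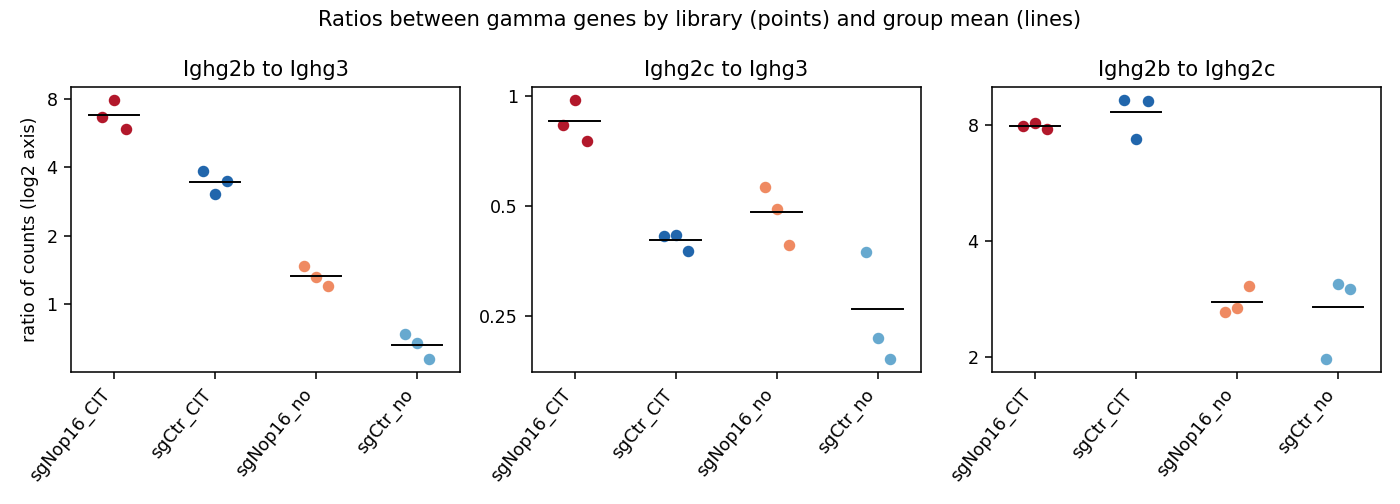
Ratio of estimated counts within each library for 3 pairs of members, on a log axis, in the 4 groups. Points are libraries and lines group means, and the ratios over Ighg3 are higher with the Nop16 guide in both states while the ratio of Ighg2b to Ighg2c overlaps.

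Of the neighbouring constant genes, Ighm had 2128 ± 42.4 CPM with the Nop16 guide and 2278 ± 51.2 CPM with the control guide under CIT (log2 -0.10 ± 0.02, adjusted p = 0.00391; edgeR's quasi-likelihood test), and Igha had 949 ± 10.1 and 999 ± 26.4 CPM (-0.07 ± 0.02, adjusted p = 0.0614). Without CIT, both were called lower with the Nop16 guide, as Ighg3 was. Ighm had 2203 ± 23.9 CPM with the Nop16 guide and 2529 ± 13.1 CPM with the control guide (log2 -0.20 ± 0.02, adjusted p = 1.10e-05; edgeR's quasi-likelihood test), and Igha had 873 ± 14.7 and 957 ± 13.6 CPM (-0.13 ± 0.02, adjusted p = 0.00284). Ighd was not called in either state, at -0.08 ± 0.11 under CIT and 0.21 ± 0.11 without CIT on the log2 scale.

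Genes of the 3 signals in CIT were read from lists chosen with earlier results known. In the IL-4 and STAT6 list, 7 of 11 tested genes rose and 2 fell under CIT with the Nop16 guide, and 6 rose and 2 fell with the control guide, with a median log2 change of 0.32 and 0.36, against 0.01 and 0.02 over all tested genes. The shares of all tested genes were 18.9% higher and 18.2% lower with the Nop16 guide, and 20.4% and 20.9% with the control guide. Cish, a feedback inhibitor of cytokine signalling, rose by 5.63 on the log2 scale with each guide, and Nfil3, a transcription factor, by 2.03 with the Nop16 guide and 2.00 with the control guide. With the Nop16 guide against the control guide, 1 of the 11 was higher in each state, Il2rg, a receptor subunit (0.14 ± 0.03 under CIT and 0.15 ± 0.03 without), and none lower. In each state that call is lost when any of 4 of the 6 libraries is left out in turn. Between guides, the shares of all tested genes were 3.39% higher and 2.77% lower under CIT, and 1.79% and 1.53% without CIT.

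In the CD40 and NF-κB list, 13 of 19 tested genes rose with each guide under CIT, none fell with the Nop16 guide, and Nfkbib, an NF-κB inhibitor, fell with the control guide (log2 -0.28 ± 0.07, adjusted p = 0.00283; edgeR's quasi-likelihood test). Over all tested genes, 18.9% rose and 18.2% fell with the Nop16 guide, and 20.4% and 20.9% with the control guide. Map3k14, the kinase of the alternative NF-κB pathway, rose by 1.57 with the Nop16 guide and 1.56 with the control guide, and Cd40 by 1.19 and 1.32. With the Nop16 guide against the control guide, 6 of 19 were higher and 1 lower under CIT, where 3.39% of all tested genes were higher and 2.77% lower. Without CIT, 4 of 19 were higher and none lower, where 1.79% of all tested genes were higher and 1.53% lower. Relb (0.25 ± 0.04, adjusted p = 0.00156) and Nfkbia (0.22 ± 0.03, adjusted p = 0.000477), an NF-κB subunit and an inhibitor, were among the higher ones under CIT, and Rel, another NF-κB subunit, was the lower one, at 226 ± 3.08 CPM with the Nop16 guide and 293 ± 2.93 CPM with the control guide (log2 -0.38 ± 0.03; edgeR's quasi-likelihood test).

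In the TGF-β, SMAD and RUNX list, 9 of 14 tested genes rose and 3 fell with each guide under CIT, beside the shares of all tested genes given above. Tgfbr1, the type I receptor, rose most, by 2.70 with the Nop16 guide and 3.16 with the control guide, and ended at 383 ± 5.57 CPM with the Nop16 guide and 517 ± 15.3 CPM with the control guide (log2 -0.43 ± 0.04). Smad7, an inhibitor of the pathway, rose by 1.68 and 1.86 with the Nop16 and the control guide. Between guides, 2 of 14 were higher with the Nop16 guide and 1 lower under CIT, and 2 higher and none lower without CIT, beside the shares over all tested genes given above. The number higher fell to 0 or 1 under CIT, and to 1 without CIT, when any 1 library of that state was left out. Runx2, a RUNX transcription factor, was higher with the Nop16 guide without CIT (0.61 ± 0.07, adjusted p = 0.000160; edgeR's quasi-likelihood test), and its call under CIT (0.27 ± 0.07, adjusted p = 0.0352) is lost when any 1 of the 6 CIT libraries is left out.

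Of the factors that act on germline promoters and the 3′ enhancers, 24 of 25 were tested, and 1 was higher and 8 lower with the Nop16 guide under CIT, with 1 higher and 4 lower without CIT. Over all tested genes, 3.39% were higher and 2.77% lower under CIT, and 1.79% higher and 1.53% lower without CIT. The higher ones were both interferon regulatory factors, Irf4 under CIT (log2 0.18 ± 0.04, adjusted p = 0.0127) and Irf8 without CIT (0.20 ± 0.04, adjusted p = 0.0181; edgeR's quasi-likelihood test). The call of Irf4 is lost when any of 3 of the 6 libraries is left out, and that of Irf8 without CIT when any of 4 is. Under CIT, Irf8 was instead called lower (log2 -0.32 ± 0.04, adjusted p = 0.000327; edgeR's quasi-likelihood test). This lower call was kept in all 14 alternatives. Id3 (-0.45 ± 0.05) and Ets1 (-0.33 ± 0.03), an inhibitor of E proteins and a transcription factor, were the most reduced of the list under CIT. Without CIT, Id2, another inhibitor of E proteins, was the most reduced (-0.42 ± 0.08), and its call was kept in 12 of 14 alternatives. Xbp1, a transcription factor, and Ets1 followed (-0.29 ± 0.03 each). None of 22 tested genes of locus looping and Mediator was called between guides in either state, which is near the shares of all tested genes. Some alternatives called 1 of them, lower without CIT and higher under CIT. The count over such a list is a description and was not compared with other lists.

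Genes whose course over the 12 libraries was nearest to each member were found by the root mean square difference of centred log2(CPM + 0.5). Immunoglobulin genes, genes without a symbol and those with predicted model or clone names were not candidates. The nearest other member was sought separately. Nearest to Ighg1 came Susd2 (0.187), Vdr (0.289) and Ctsw (0.295), with Ighg2b at 0.308. Nearest to Ighg2b came Xylt1 (0.245), Susd2 (0.250) and Notch3 (0.269). Nearest to Ighg2c came Tubb6 (0.238), Ints4 (0.259) and Ttc8 (0.263). Nearest to Ighg3 came Ptgs1 (0.288), Ccng2 (0.292) and Nfil3 (0.302), and its nearest other member was Ighe at 0.488. Nearest to Ighe came Ttc8 (0.130), Lynx1 (0.175) and Tmem119 (0.181), a course that the added 0.5 flattens at the low level of Ighe. The added 0.5 also flattens the course of Ighg1, which was close to absent without CIT. Distances from Ighg1 or Ighe to other genes, members included, thus rest in part on it. This likeness is a description of 12 libraries that mostly follows CIT.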

How the data were processed

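RNA was read from total RNA with a directional library kit, per the labels' protocols, in 12 libraries of CH12F3-2A. What the authors deposited is a table of estimated counts, unscaled, over 56941 genes. HISAT2 2.2.1, StringTie 2.2.1 and the build GRCm39 appear in the submitters' processing notes with no stated role. The annotation release, the strand setting and the read length are not given in the sources. Each library supplied between 38866418 and 48615177 counts. Symbols came from GENCODE M21 on GRCm38 for 51948 genes, and 4993 had none.

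Values were rounded to whole numbers, filtered with filterByExpr at a minimum count of 10 (16794 genes) and tested in 1 model of all 12 libraries with edgeR 4.0.16 in R 4.3.3 (TMM factors, quasi-likelihood F test). Adjusted p is by Benjamini-Hochberg over all tested genes, called under 0.05. Errors are SDs over 3 libraries or the model's SE, and p-values measure only the spread between these replicates. The script was tested on simulated counts. Alternatives were RLE size factors, library totals, no filter or a stricter one (5 CPM in 3 libraries), DESeq2 1.42.0, counts divided by 4, only the groups compared, a replicate block and leaving out each library. Same-numbered libraries of different groups did not deviate together (18 correlations from -0.071 to 0.048), so the numbers were not taken as pairs.

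The 5 members, the pathway lists, the ratios and the tests were chosen with earlier results of these data known. Named genes were the members, Nop16, the neighbouring constant genes and the 3 genes most alike each member. Genes most alike had a symbol and a mean of at least 1 CPM. Immunoglobulin genes and predicted model or clone names were excluded from them. Up to 3 called genes each way in each list were also named. In the pathway lists, 1 gene is not reported here and was left out of the counts.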

Additional observations from a re-analysis of the deposited data

Results flagged for a closer look

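For 8 genes of the pathway lists, the response to CIT differed between the guides in edgeR's quasi-likelihood test of that difference. Over all tested genes, 2.13% did. The 8 were 1 of 19 tested genes in the CD40 and NF-κB list and 2 of 14 in the TGF-β, SMAD and RUNX list. Of 24 promoter and enhancer factors, 1 was higher and 4 lower. None of 11 in the IL-4 and STAT6 list or of 22 in the looping and Mediator list was called. Each value is the log2 response with the Nop16 guide minus that with the control guide. Rel, an NF-κB subunit, stood at -0.46 (adjusted p = 7.16e-05). Tgfbr1, the type I TGF-β receptor, stood at -0.46 (adjusted p = 0.000169), and Tgfbr2, the type II receptor, at -0.22 (adjusted p = 0.0334). Without CIT, Tgfbr2 was called higher with the Nop16 guide (0.14 ± 0.04), a call kept in 6 of 14 alternatives. Irf8, a transcription factor, stood at -0.52 (adjusted p = 0.000299), and Id3, an inhibitor of E proteins, at -0.45 (adjusted p = 0.00683). Id2, a related inhibitor, was the one with a larger response in the Nop16 guide cells, at 0.51 (adjusted p = 0.0236). Without CIT, Id2 was called lower with the Nop16 guide, at 4.68 ± 0.105 CPM against 6.26 ± 0.291 CPM with the control guide. Under CIT it was not called, at 38.9 ± 1.48 and 36.7 ± 1.43 CPM in the same order. Hoxc4 stood at -0.38 (adjusted p = 0.0313) and Pou2f2, the lymphoid factor Oct-2, at -0.21 (adjusted p = 0.0414). Rel, Tgfbr1, Irf8 and Id3 kept their call in all 19 alternatives, Tgfbr2 and Id2 in 12, Hoxc4 in 9 and Pou2f2 in 8. None of the 5 gamma and epsilon genes was called in that test, which says little for Ighg1 and Ighe at their low counts without CIT.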

How the results depend on the processing

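The number of the 5 genes called kept within 1.5 times of its value in every alternative, except for the guide difference averaged over both states. That average had 2 called genes as reported and 1 to 3 when single libraries were left out. With no low-count filter it had 1, because Ighg2b lost its call (adjusted p = 0.0571; edgeR's quasi-likelihood test). The highest number came without sgCtr_no replicate 1, where Ighg2c was called too (log2 0.40, adjusted p = 0.0363). Ighg3 stayed lower and called in every alternative, with log2 differences from -0.97 to -0.80 without CIT and from -0.71 to -0.52 under CIT. Ighg2b stayed higher and called under CIT in every alternative, from 0.31 to 0.39. The ratio of Ighg2b to Ighg3 ranged from 0.93 to 1.04 and that of Ighg2c to Ighg3 from 0.91 to 1.15 (log2). Signs turned only where no call was made, and the cause was not tested. Without CIT, Ighg2c ranged from -0.21 to 0.36 when single libraries were left out, and Ighg2b from -0.0046 to 0.22. Ighg2c stood at -0.07 without sgNop16_no replicate 1 and without sgCtr_no replicate 2, and at -0.21 without sgCtr_no replicate 3, which also put Ighg2b at -0.0046. Under CIT, Ighe ranged from -0.016 (without sgNop16_CIT replicate 1) to 0.32. The log2 ratio of Ighg2b to Ighg2c ranged from -0.12 to 0.041 and was above 0, from 0.0046 to 0.041, when any of 5 libraries was absent. With the replicate block, the same numbers of members were called (1 without CIT, 2 under CIT, 5 for each CIT response), and the ratios over Ighg3 had an adjusted p of 0.0469. Over all genes, DESeq2 called 514 higher and 413 lower without CIT, and 366 higher and 401 lower for the difference between the CIT responses, against 148 and 210 by edgeR. That difference had 83 and 124 with no filter. Counts over all genes fell by over 1.5 times without some single libraries. Under CIT they fell to 316 to 372 higher and 297 to 328 lower without sgNop16_CIT replicate 2 or 3 or any sgCtr_CIT library, against 569 and 465. Without CIT they fell to 226 and 140 without sgNop16_no replicate 2 and to 207 and 145 without replicate 3, against 301 and 257. The difference between the CIT responses had 69 to 94 higher and 130 to 146 lower without sgNop16_CIT replicate 2 or 3, sgCtr_CIT replicate 2 or 3 or sgNop16_no replicate 1. Ighe was left out by the filter at 5 CPM. At 4 counts per fragment, the low counts of Ighe and Ighg1 limit what can be seen without CIT.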
